A study of Homo sapiens with 6 samples.

Results

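The alpha-arrestins are described here in MV4;11, a cell line from an acute myeloid leukemia with the genotype FLT3-ITD MLL-AF4, that is, an internal tandem duplication of the receptor FLT3 and a fusion of MLL to AF4. The family was taken as 5 genes by symbol, TXNIP, ARRDC1, ARRDC2, ARRDC3 and ARRDC4, among the 21857 genes of the tables, and all 5 passed the filter on low counts that left 13531 genes. RNA sequencing was available for 3 libraries of cells given flavokawain A (FKA), a chalcone of the kava plant, at 10 µg/ml for 48 h, and for 3 libraries of cells kept without FKA. Every library carries the same genotype, and each of the 3 labelled batches holds 1 FKA and 1 control library. The labels do not say whether replicates were separate cultures or whether controls received a vehicle, so the spread between them may be technical. The study used the RNA to look for mechanisms behind the effect of FKA on viability.

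The genes were selected on the measured FKA contrast itself, because ARRDC3 and TXNIP differed in opposite directions. The FKA values of the 5 genes are therefore a description, carry no p-value and support no other result. FKA and control libraries were fully separated in 4 of the 5 genes and in 67.3% of all tested genes. Of the 5, 2 were higher in every FKA library than in any control, 2 were lower and ARRDC2 overlapped. No call is given for genes chosen on this contrast. With edgeR's quasi-likelihood test at an adjusted p of 0.05, 59.8% of all tested genes passed, 29.3% higher and 30.5% lower. That split depended on the scaling: 3959 genes were higher and 4131 lower as reported, 4993 and 3282 with library totals alone.

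Alpha-arrestins are proteins with an arrestin fold that act as adaptors. PPxY motifs in their tails bind the WW domains of NEDD4-family ubiquitin ligases, and the pair leads receptors and transporters of the plasma membrane to ubiquitination and uptake into the cell. TXNIP is the best known member: it binds thioredoxin, promotes internalisation of the glucose transporter GLUT1, and is transcribed by the glucose-sensing pair MondoA (gene MLXIP) and MLX through carbohydrate response elements. ARRDC4 is the other member known to answer to MondoA and to lower glucose uptake. ARRDC3 is known for trafficking of integrin beta4, ARRDC1 for recruiting TSG101 to vesicles that bud from the plasma membrane, and ARRDC2 is less studied.

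The promoters of the members with the largest differences are shown because TXNIP and ARRDC4 were both lower with FKA while ARRDC3 was higher. All 5 members matched the RefSeq promoter table (GRCh38.p14). Each line gives the 250 bases before a transcript start on the gene's own strand, and capitals mark matches to the motifs described after them.
TXNIP, chr1:145996580-145996829, minus strand: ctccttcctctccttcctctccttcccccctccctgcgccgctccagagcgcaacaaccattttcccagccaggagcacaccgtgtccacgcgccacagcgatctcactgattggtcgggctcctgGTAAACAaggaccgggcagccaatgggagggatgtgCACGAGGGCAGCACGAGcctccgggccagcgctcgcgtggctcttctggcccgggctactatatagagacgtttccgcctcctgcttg
ARRDC4, chr15:97960453-97960702, plus strand: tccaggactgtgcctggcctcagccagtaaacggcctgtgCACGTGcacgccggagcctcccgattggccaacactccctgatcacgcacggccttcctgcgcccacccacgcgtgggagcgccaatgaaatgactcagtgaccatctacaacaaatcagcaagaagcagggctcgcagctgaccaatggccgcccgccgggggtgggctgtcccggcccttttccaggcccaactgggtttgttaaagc
ARRDC3 second start, chr5:91380098-91380347, minus strand: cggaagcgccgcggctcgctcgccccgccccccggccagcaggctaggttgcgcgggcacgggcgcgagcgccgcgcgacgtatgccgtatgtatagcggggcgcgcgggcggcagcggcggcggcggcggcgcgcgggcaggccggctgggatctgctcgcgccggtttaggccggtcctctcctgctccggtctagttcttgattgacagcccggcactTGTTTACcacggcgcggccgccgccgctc

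Windows of 300 bases, from 250 before to 50 after each start, were searched on both strands with 3 patterns. They were an E-box (CACGTG), a carbohydrate response element (CACGNG, then any 5 bases, then CNCGNG, which can overlap an E-box) and a FOXO site (GTAAACA). The TXNIP window held 1 carbohydrate response element, from -88 to -72 relative to the start, and 1 FOXO site from -124 to -118. The ARRDC4 window held 1 E-box from -210 to -205 and no match to the other 2 patterns. The second start of ARRDC3 had 1 FOXO site on the opposite strand, from -29 to -23, and the windows of its first start, of both ARRDC2 starts, of ARRDC1 and of the second TXNIP start had no match. Among all 35116 windows, 0.501% held a carbohydrate response element, 3.42% a FOXO site, 7.26% an E-box, and 9 windows held both of the elements found in TXNIP. A match is a stretch of letters and not a measured binding site, and a window without one says nothing about the factor.

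**Figure D1:**
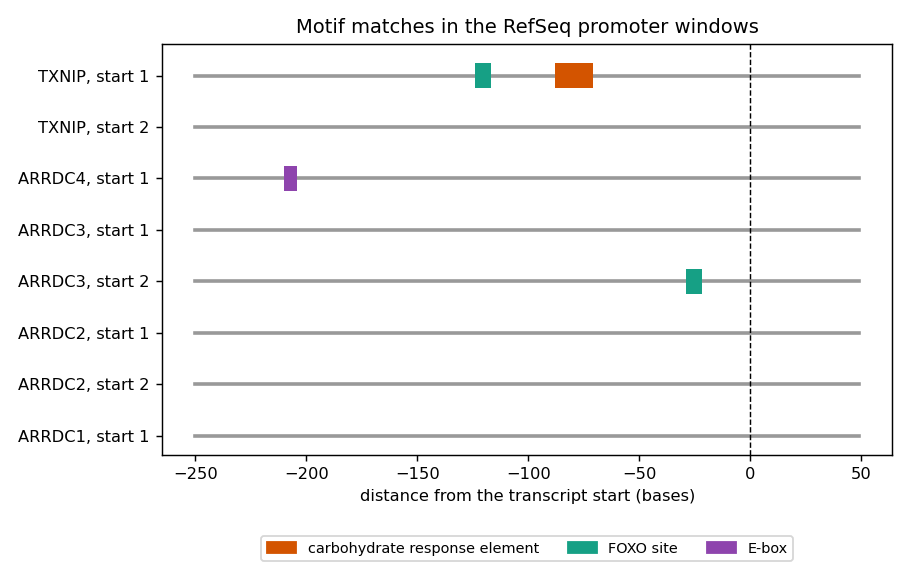
Positions of motif matches (coloured boxes) in the 300-base RefSeq promoter windows of the 5 genes, with distance from the transcript start in bases on the x axis and 1 line per annotated start. The TXNIP window holds a FOXO site and a carbohydrate response element, ARRDC4 an E-box, and the second ARRDC3 start a FOXO site close to the start.

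TXNIP, the inhibitor of thioredoxin, had 491, 449 and 289.8 CPM (counts scaled to a common library size with TMM factors for RNA composition) in FKA replicates 1 to 3, against 749, 1004 and 904 CPM in control replicates 1 to 3. The highest FKA library lay below the lowest control, and FKA replicate 3 lay well below the other FKA libraries. The means were 410.1 ± 106 CPM with FKA and 886 ± 128 CPM in controls (SD, n = 3 each), a fitted log2 fold change of -1.11 (SE 0.196). Within batches 1, 2 and 3 the log2 difference was -0.61, -1.16 and -1.64. The size therefore varied among these differences between single libraries, while the direction did not. Spread between batches and spread between libraries cannot be told apart here. Even with FKA, TXNIP stayed an abundant transcript: its mean FPKM, a level per length, was above that of 97.8% of tested genes with FKA and of 98.8% in controls.

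ARRDC4, the other member tied to glucose sensing, was lower with FKA by a larger factor than TXNIP. It stood at 4.97, 6.13 and 5.29 CPM in FKA replicates 1 to 3, against 22.7, 23.3 and 25.4 CPM in control replicates 1 to 3. No FKA library came near a control, and the libraries of each group lay close together. The means were 5.46 ± 0.596 CPM with FKA and 23.8 ± 1.44 CPM in controls (SD, n = 3 each), a log2 fold change of -2.12 (SE 0.140). Batches 1, 2 and 3 gave -2.19, -1.93 and -2.26.

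ARRDC3, the adaptor of integrin trafficking, was nearly silent in controls and well expressed with FKA. It had 2017, 3681 and 2966 counts in FKA replicates 1 to 3, against 28, 76 and 40 counts in control replicates 1 to 3. Scaled, these were 62.7, 115 and 85.3 CPM with FKA and 0.901, 2.12 and 1.19 CPM in controls. Replicate 2 was the highest library in both groups. The means were 87.7 ± 26.3 CPM with FKA and 1.40 ± 0.639 CPM in controls (SD, n = 3 each), a log2 fold change of 5.94 (SE 0.332) or 61.5-fold. Only 2 of the 13531 tested genes had a larger log2 fold change. Batches 1, 2 and 3 gave 6.12, 5.76 and 6.16, which lie close together. The size of this fold moved with the libraries kept, while its direction did not. Without control replicate 2 the log2 fold change was 6.37, and without FKA replicate 2 it was 5.70. With the batch in the model it was 5.98 (SE 0.133). The control counts behind the fold are small.

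ARRDC1, the member linked to budding vesicles, had 38.5, 39.2 and 41.0 CPM in FKA replicates 1 to 3, against 23.3, 27.8 and 26.8 CPM in control replicates 1 to 3. The groups did not overlap, and the FKA libraries were nearly equal. The means were 39.5 ± 1.29 CPM with FKA and 26.0 ± 2.33 CPM in controls (SD, n = 3 each), a log2 fold change of 0.61 (SE 0.104), and batches 1, 2 and 3 gave 0.72, 0.50 and 0.61.

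ARRDC2 was the member whose groups overlapped. It had 46.1, 43.8 and 46.3 CPM in FKA replicates 1 to 3, against 48.8, 50.5 and 43.4 CPM in control replicates 1 to 3. The means were 45.4 ± 1.36 CPM with FKA and 47.6 ± 3.70 CPM in controls (SD, n = 3 each). The log2 fold change of -0.07 (SE 0.0944) was smaller than its error, and batches 1, 2 and 3 gave -0.08, -0.20 and 0.09. Its sign depended on the scaling: with library totals alone, which moved the median over all tested genes up by 0.16, it was 0.090.

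**Figure D2:**
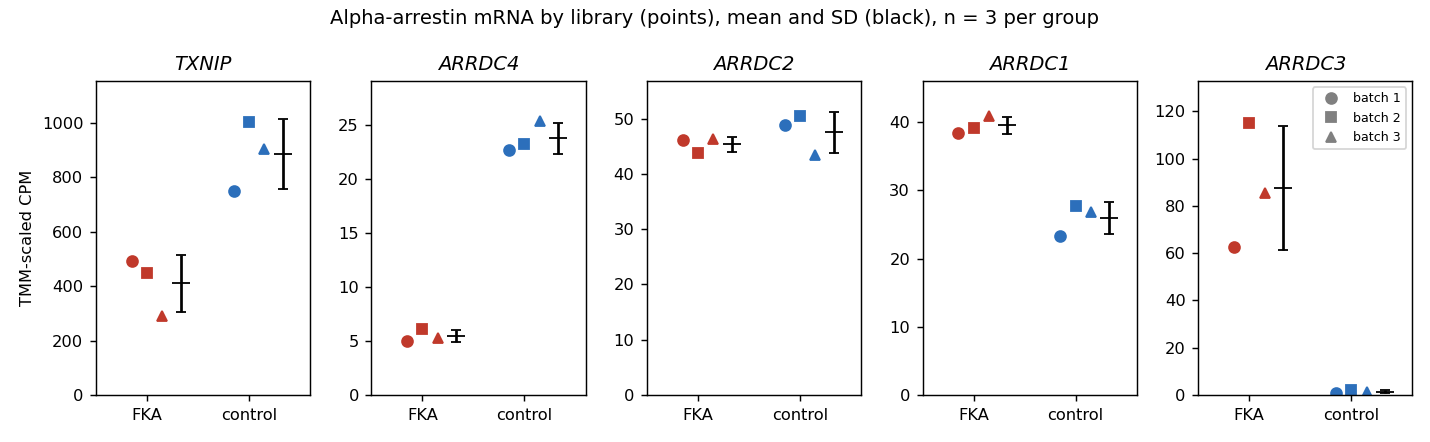
TMM-scaled CPM of each member in every library, with FKA left of control, symbols for the batch and the mean with SD in black (n = 3 per group). Each panel has its own axis from 0. TXNIP and ARRDC4 lie lower with FKA, ARRDC1 and ARRDC3 lie higher, and ARRDC2 overlaps.

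**Figure D3:**
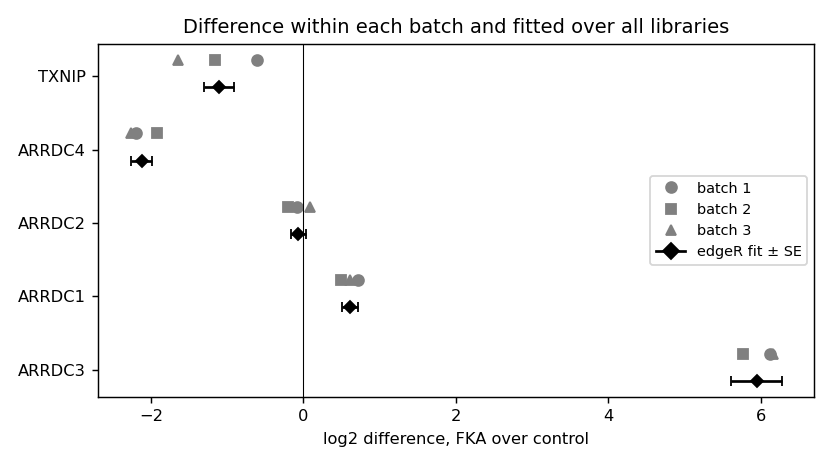
Log2 difference of FKA over control within each batch (grey symbols) and as fitted over all 6 libraries (black, with SE), on the x axis, for each member. The batch values of TXNIP run from -1.64 to -0.61, while those of ARRDC4, ARRDC1 and ARRDC3 lie close to their fitted values.

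ARRDC5, a further ARRDC gene in the tables, was at 0 counts in the FKA libraries and had 1 count in 1 control library, so it was not tested. The antisense transcripts of ARRDC1 and ARRDC3 were examined after their values were seen, because both overlap their partner in the RefSeq annotation and the use of strand in counting is not stated. ARRDC3-AS1 had 60, 41 and 34 counts in FKA replicates 1 to 3, against 7, 8 and 10 counts in control replicates 1 to 3, a log2 fold change of 2.45 (SE 0.394). It passed the filter on low counts through the FKA libraries alone, so no p is given. ARRDC3-AS1 had fewer counts than ARRDC3 in every library of both groups, and whether reads of ARRDC3 were counted in it was not tested. ARRDC1-AS1 stood at 13.4 ± 0.370 CPM with FKA, against 7.82 ± 0.927 CPM in controls (SD, n = 3 each). Its log2 fold change was 0.78 (SE 0.145), and no p is given, since it was examined after its values were seen. Without strand, reads in the shared stretches cannot be told apart, and how many there were was not measured.

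Per length, TXNIP dominated the family in both groups, but less so with FKA. In FPKM, which divides by gene length, the order with FKA was TXNIP (131 ± 34.6), ARRDC3 (19.0 ± 5.84), ARRDC2 (16.2 ± 0.341), ARRDC1 (9.16 ± 0.263) and ARRDC4 (1.42 ± 0.168; SD, n = 3 each). In controls it was TXNIP (255 ± 45.1), ARRDC2 (15.3 ± 1.55), ARRDC4 (5.55 ± 0.364), ARRDC1 (5.40 ± 0.647) and ARRDC3 (0.275 ± 0.135). With FKA the neighbours ARRDC3 and ARRDC2 did not differ beyond their spread, since ARRDC2 was above ARRDC3 in FKA replicate 1 and below it in FKA replicates 2 and 3. In controls ARRDC4 and ARRDC1 did not differ beyond theirs, since ARRDC1 was the higher of the pair in control replicate 2. All other neighbours kept their order in every library of their group. ARRDC3 thus stood last of the 5 in controls and second in the mean with FKA, above 78.1% of tested genes with FKA and above 12.2% in controls.

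The summed FPKM of the 5 genes was 197, 197 and 137 in FKA replicates 1 to 3, against 234, 328 and 281 in control replicates 1 to 3. Every FKA library lay below every control. TXNIP made up 79.6%, 73.7% and 66.9% of that sum in FKA replicates 1 to 3, and 89.2%, 91.2% and 91.0% in control replicates 1 to 3. ARRDC3 made up 6.86%, 12.8% and 13.3% with FKA and 0.0725%, 0.130% and 0.0809% in controls. The summed level was thus lower with FKA and divided more evenly among members, a restatement of the 2 differences on which the genes were chosen.

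**Figure D4:**
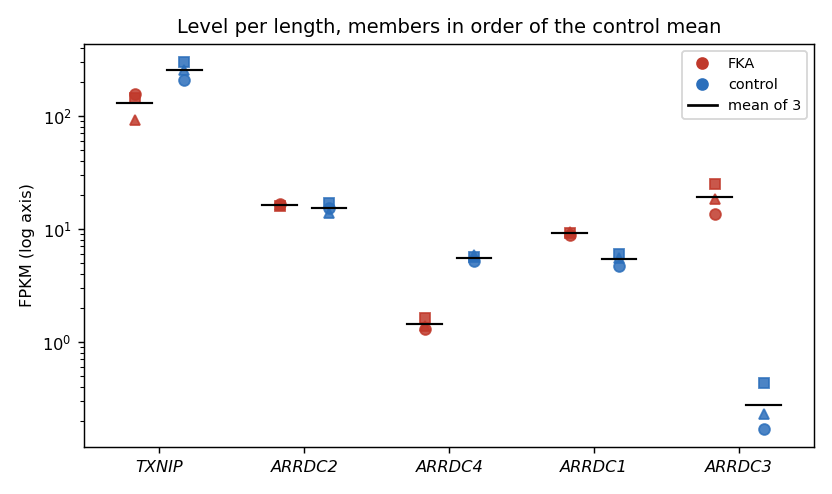
FPKM of each member on a log axis, FKA (red) left of control (blue), 1 symbol per library by batch and a bar at the mean of 3. ARRDC3 lies at the level of ARRDC2 with FKA and is the lowest member in controls, and TXNIP stays the highest in both groups.

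Likeness to other genes was measured as the root mean square difference between log2 CPM profiles over the 6 libraries, each centred on its own mean, among 8949 other genes with a mean of at least 10 CPM. The profiles hold the group difference, so the measure mostly finds genes with a similar fold change, and it is given as a description. Nearest to ARRDC3 were ME1, the malic enzyme, at 0.71, the quinone reductase NQO1 at 0.82 and the metalloprotease ADAM28 at 0.97, with log2 fold changes of 4.58, 4.34 and 4.43. Nearest to TXNIP were the homeobox gene HOXC4 at 0.11, LACTB2 at 0.12 and PSMB8-AS1 at 0.14. Nearest to ARRDC4 were RNASEH2A, a subunit of the nuclease that removes RNA from DNA, at 0.10, PAFAH1B3 at 0.12 and the replicative polymerase gene POLE at 0.12. ARRDC1 lay nearest to ATP5IF1, SUSD6 and OSTF1 (0.036, 0.040 and 0.042), and ARRDC2 to SRP19, TMEM250 and KRTCAP2 (0.034, 0.041 and 0.042). The nearest gene to ARRDC3 was farther away than TXNIP was from ARRDC4 (0.56). Since ARRDC3 was chosen on its difference and only 2 tested genes had a larger log2 fold change, that distance is no separate result.

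Genes of the pathways around the family were counted in 8 lists. Of 81 listed genes 69 were tested, 21 rose, 20 fell and 28 did not pass, which is 59.4% called, against 59.8% of all genes. With library totals alone 26 rose and 14 fell, and on log2(FPKM + 0.1) 25 rose and 15 fell. The median log2 fold change was 0.00 in these 69 genes and 0.01 in all tested genes. The lists are described by role.

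NEDD4-family ligases are the enzymes that alpha-arrestins bring to their cargo. Of 11 listed ligases and NDFIP adaptors 9 were tested, 3 rose, 1 fell and 5 did not pass (median 0.19), while 6 of the 9 passed with library totals alone. NDFIP1, a membrane adaptor that activates these ligases, rose to 42.8 ± 5.25 CPM with FKA, against 11.0 ± 1.24 CPM in controls (SD, n = 3 each; log2 fold change 1.96, edgeR adjusted p = 1.04e-05). NEDD4 itself fell to 26.5 ± 4.40 CPM, against 45.6 ± 5.92 CPM (-0.79, edgeR adjusted p = 0.00182). SMURF2 (0.35) and NDFIP2 (0.33) rose slightly, and SMURF2 lost its call when FKA replicate 1 was left out (edgeR adjusted p = 0.0666) or control replicate 2 was (edgeR adjusted p = 0.0544). ITCH stood at 0.13, WWP1 at 0.19, WWP2 at -0.10, NEDD4L at 0.30 and SMURF1 at 0.00, and none of these passed; scaling by library totals alone called ITCH (edgeR adjusted p = 0.0449) and WWP1 (edgeR adjusted p = 0.0326).

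Of 11 genes that encode reported cargo proteins 8 were tested, 1 rose, 4 fell and 3 did not pass (median -0.39). These are mRNA levels, and cargo protein was not measured. The glucose transporter SLC2A3 fell to 172 ± 15.4 CPM with FKA, against 308 ± 41.8 CPM in controls (log2 fold change -0.84, edgeR adjusted p = 0.000403). SLC2A1, which encodes GLUT1, stood at -0.26 (edgeR adjusted p = 0.111, and 0.0413 without control replicate 1). NOTCH1 (-0.91), the insulin receptor INSR (-0.46) and YAP1 (-1.67, on 52 counts over the FKA libraries and 170 over the controls) fell as well, and the iron transporter SLC11A2 rose by 0.40.

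Of 11 thioredoxin genes, the system that TXNIP restrains, 10 were tested, 3 rose, 2 fell and 5 did not pass (median 0.00), and PRDX3 (-0.26) passed once batch entered the model (edgeR adjusted p = 0.0321) and when control replicate 2 was left out (edgeR adjusted p = 0.0202). SRXN1, which repairs peroxiredoxins, rose by 1.34, the reductase TXNRD1 by 0.76 and the peroxiredoxin PRDX1 by 0.48, while mitochondrial TXN2 fell by 0.42 on the log2 scale. Thioredoxin itself (TXN) fell to 126 ± 18.0 CPM with FKA, against 166 ± 22.1 CPM in controls (-0.40, edgeR adjusted p = 0.0260), a call lost on library totals (-0.24, edgeR adjusted p = 0.109) and in 4 of the fits that left out 1 library. It passed neither without FKA replicate 1 or 2 (edgeR adjusted p = 0.0662 and 0.0902) nor without control replicate 1 or 3 (edgeR adjusted p = 0.0655 and 0.0571). The ratio of TXNIP to TXN in FPKM was 0.872, 0.928 and 0.449 in FKA replicates 1 to 3, and 0.883, 1.54 and 1.23 in control replicates 1 to 3, so the groups overlapped in this ratio.

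Of 13 listed genes of the Mondo and MYC/MAX network, the factors that share E-boxes, 11 were tested, 3 rose, 3 fell and 5 did not pass (median -0.08), and MNT (-0.29) passed once batch entered the model (edgeR adjusted p = 0.0371) and when control replicate 3 was left out (edgeR adjusted p = 0.0102). MLXIP, which encodes MondoA, rose to 174 ± 9.71 CPM with FKA, against 118 ± 16.5 CPM in controls (log2 fold change 0.55, edgeR adjusted p = 0.00244), whereas its partner MLX did not pass (-0.08). MLXIPL, the relative ChREBP, had 1 count over the FKA libraries and 12 over the controls and was not tested. MYC fell to 76.5 ± 33.8 CPM, against 628 ± 132 CPM (-3.04). Its antagonist MXD4 rose by 1.85, and MGA (-0.64) and MXI1 (-0.62) fell.

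Of 9 genes of the glucocorticoid receptor and its response, a pathway that also induces TXNIP in other cells, all were tested, 6 fell and 3 did not pass (median -0.75), while 4 fell with library totals alone. DDIT4, the inhibitor of mTORC1, fell to 183 ± 78.9 CPM with FKA, against 869.8 ± 173 CPM in controls (-2.25, edgeR adjusted p = 0.000200). KLF9 (-1.50) and FKBP5 (-0.75) fell too. ZBTB16, counted among the 6, had 10 counts over the FKA libraries and 113 over the controls and passed the filter on low counts through the controls alone. DUSP1 (-0.75) and PER1 (-0.45) lost their calls with library totals (edgeR adjusted p = 0.0862 and 0.0568), and DUSP1 also when FKA replicate 1 or 2 or control replicate 2 or 3 was left out (edgeR adjusted p between 0.0814 and 0.118). The receptor gene NR3C1 stood at -0.02 and did not pass. The steroid-induced TSC22D3 stood at 0.26 (edgeR adjusted p = 0.329) and passed without control replicate 2 (0.55, edgeR adjusted p = 0.0201).

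Of 11 ESCRT and vesicle genes, the machinery ARRDC1 recruits, 5 rose, 3 fell and 3 did not pass (median 0.24). PDCD6IP, which encodes ALIX, rose to 257 ± 8.36 CPM with FKA, against 153 ± 21.2 CPM in controls (0.75, edgeR adjusted p = 0.000457), and STAM2 rose by 0.55. VPS37B (-0.50) and VPS37C (-0.47) fell, as did VPS37A (-0.33). VPS37C and VPS37A lost their calls with library totals (edgeR adjusted p = 0.0508 and 0.0907), which left 6 that rose and 1 that fell. VPS4B (0.27) lost its call when FKA replicate 1 or any 1 control was left out (edgeR adjusted p between 0.0532 and 0.101), and VPS4A (0.30) without FKA replicate 3 (edgeR adjusted p = 0.0501). TSG101, the partner of ARRDC1, stood at 0.24 and did not pass (edgeR adjusted p = 0.0592), but did with library totals (0.40, edgeR adjusted p = 0.00765). Of 8 arrestin-fold relatives 5 were tested, 3 rose and 2 did not pass (median 0.45): the retromer genes VPS26B (0.65) and the related VPS26C (0.45) and the beta-arrestin gene ARRB1 (0.48) rose, and ARRB2 (0.22) and VPS26A (0.04) did not pass, though ARRB2 did with library totals (0.38, edgeR adjusted p = 0.0378). Of 7 inflammasome genes, the complex of NLRP3 that TXNIP can bind, 6 were tested, 3 rose (NEK7 by 0.55, GSDMD by 0.54, PYCARD by 0.46), IL18 fell (-0.50) and 2 did not pass (median 0.25). NLRP3 itself stood at 0.04. IL18 lost its call with library totals (-0.34, edgeR adjusted p = 0.104) and in each of 4 fits without 1 library (edgeR adjusted p between 0.0530 and 0.0704). GSDMD lost its call without control replicate 2 (edgeR adjusted p = 0.0504).

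**Figure D5:**
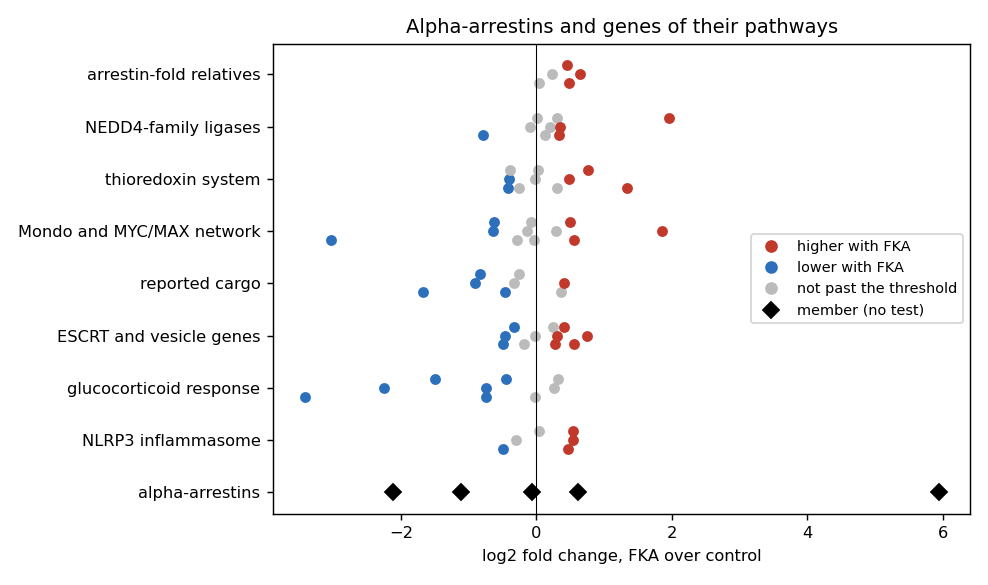
Log2 fold change of FKA over control (x axis) for every tested gene of the 8 lists, coloured by whether it rose, fell or did not pass at an edgeR adjusted p of 0.05, with the 5 members as black diamonds and no test. ARRDC3 at 5.94 lies beyond every gene of the lists, and the list genes fall on both sides of 0.

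Library totals ran from 29971171 to 36362421 counts. All 6 myeloid markers (PTPRC, CD33, SPI1, FLT3, LYZ and MPO) were above 1 CPM in controls, and the most abundant, PTPRC, had 683 CPM with FKA and 557 CPM in controls. MPO had 1.06 CPM with FKA and 44.5 CPM in controls. In bulk RNA, fewer cells of a type and less RNA per cell cannot be told apart. Summed over 5 mesenchymal markers, of which FN1 was the most abundant and none was at 0 in all libraries, there were 0.932, 49.6 and 45.5 CPM in FKA replicates 1 to 3, against 10.0, 8.10 and 0.714 CPM in control replicates 1 to 3. COL1A2, COL3A1 and DCN were at 0 in FKA replicate 1. That library, with the low sum, had 62.7 CPM of ARRDC3, and against the 3 controls it alone gave log2 fold changes of 5.45 for ARRDC3, -0.86 for TXNIP, -2.27 for ARRDC4, 0.56 for ARRDC1 and -0.06 for ARRDC2. Control replicates 1 and 2, with the higher sums, stayed in that fit, so it was not matched for these markers. The summed markers of other cells lay between 9.29 and 9.67 CPM with FKA and between 21.3 and 24.3 CPM in controls for T and NK cells (mostly NKG7). For B cells (mostly PAX5) they lay between 7.30 and 9.64 CPM with FKA and between 20.6 and 27.3 CPM in controls. For epithelial cells (mostly KRT18) they lay between 12.9 and 18.8 CPM with FKA and between 19.2 and 21.8 CPM in controls. CD3D was at 0 with FKA, had 1 count in each control library and was not tested. The part of these cells in the results was not tested, and erythroid markers were not analysed here.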

How the data were processed

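Bulk RNA sequencing was analysed in 3 FKA and 3 control libraries of MV4;11, grouped by their titles. The authors deposited whole-number read counts per gene and FPKM values, each for 21857 genes. A gene's deposited FPKM equalled its count over the column total and 1 length per gene (largest relative deviation 6.9e-07). RNA came from a commercial extraction kit, per the labels' protocols. The submitters' processing notes name GRCm38 and mm10, which are mouse builds, while 94.5% of the symbols matched human RefSeq genes. Which aligner, counter and strand setting were used is not stated in any label or header, so no coordinates come from the files.

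Counts were tested in R 4.3.3 with edgeR 4.0.16: filterByExpr (13531 genes, at least 99.9% of counts), TMM scaling, the quasi-likelihood F test and Benjamini-Hochberg adjustment with a threshold of 0.05. SE is the log2 fold change over the root of F. The members and lists were chosen with earlier results of these data known. Text names all members, and of each list up to 4 called genes with the largest change; further list genes were named for their role after their values were seen. No 2 libraries of a group agreed within sampling noise (chi-square over its degrees of freedom 21.7 to 66.3). Batch labels and replicate numbers coincide, and the labels therefore pair the libraries. Deviations from the group means correlated at 0.05, 0.34 and -0.08 within batches 1, 2 and 3. Alternatives were the batch as a block, DESeq2 1.42.0, other scalings and filters, limma 3.58.1 on log2(FPKM + 1) and log2(FPKM + 0.1), and leaving out libraries. The edgeR procedure was checked on simulated data with far fewer changed genes, as many up as down. That check does not cover a setting where 59.8% of genes pass. Protein sequences were not used here. The values of 1 listed cargo gene are not reported here.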

Additional observations from a re-analysis of the deposited data

How the results depend on the processing

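TXNIP, ARRDC1, ARRDC3 and ARRDC4 kept their direction in all 17 alternatives, with log2 fold changes from -1.26 to -0.86, from 0.53 to 0.76, from 3.93 to 6.37 and from -2.27 to -1.44. ARRDC2 ranged from -0.14 to 0.094 and kept its sign in 12 of the 17. Library totals alone gave 0.76 for ARRDC1, 0.090 for ARRDC2 and -1.96 for ARRDC4. On log2(FPKM + 0.1) the same genes stood at 0.76, 0.094 and -1.90. On log2(FPKM + 1), which understates low genes by construction, they were 0.088 for ARRDC2, 3.93 for ARRDC3 and -1.44 for ARRDC4, and the same when only genes with a mean FPKM of at least 1 were kept. The replicate block gave -1.14 for TXNIP, 5.98 for ARRDC3, -2.13 for ARRDC4, 0.61 for ARRDC1 and -0.07 for ARRDC2, and changed the call of PRDX3 and MNT in the lists. With FKA replicate 1 alone against the controls, a choice made after seeing the data, ARRDC4 stood at -2.27, 4619 genes were called in place of 8090 and 21 list genes in place of 41; fewer libraries enter that fit. Control replicate 2 alone gave the same FPKM rank as the control mean in 3 of 5 members. Depth limits ARRDC3 in controls, with 28 to 76 counts.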
